A study of Homo sapiens with 9 samples.

Results

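The genes described are 8 genes of cholesterol synthesis and its control, HMGCS1, IDI1, FDFT1, SQLE, LSS, INSIG1, SREBF1 and SREBF2, measured in T47D cells, an established line from human breast cancer. They were chosen by name, by taking every array probe that carries one of these symbols, which gave 10 probes among the 58201 probes that are not controls and 8 genes among 43395. The data are 9 one-color microarrays of total RNA, with 3 arrays per stable line. T47D-PA6 carries a vector for full-length PTH-AS, a long noncoding RNA encoded beside the parathyroid hormone gene. T47D-PA5 carries a vector for an incomplete PTH-AS, and T47D-VC1 carries the empty control vector. All lines were selected with G418, no treatment was compared, and each group is 1 selected line, so the effect of a vector cannot be told apart from the choice of that line. The sources used here do not say whether the 3 arrays of a line came from separate cultures, so p-values measure the spread between these arrays, which may be technical.

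The 9 arrays were scanned in 2 runs. Replicate 1 of every line was on slide 1 and was scanned in the earlier run. The other arrays were on slides 2 and 3 in the later run. Slide 2 held replicate 2 of T47D-VC1 and of T47D-PA5, and replicates 2 and 3 of T47D-PA6 were both on slide 3. In the later run line and slide are thus partly mixed. Replicates 2 and 3 of a line differed by a median of 0.085 to 0.108 on the log2 scale, whereas replicate 1 differed from them by 0.21 to 0.268. Run and replicate number cannot be told apart. The 9 luminal breast markers checked, among them GATA3, ESR1 and KRT8, were marked well above background by Feature Extraction on every array, and their summed signal lay between 635257 and 683100. Of 8 markers of other cell types, 2 were well above background on every array, and the sum of all 8 lay between 370 and 410 in T47D-VC1, 382 and 391 in T47D-PA5, and 329 and 406 in T47D-PA6. VIM, the intermediate filament vimentin, gave signals of 5.84 to 6.83 in T47D-VC1, 22.9 to 26.2 in T47D-PA5, and 34.8, 91.3 and 96.9 in T47D-PA6. COL1A1, a collagen chain, went the other way, with 325 to 364 in T47D-VC1, 289 to 326 in T47D-PA5 and 235 to 265 in T47D-PA6. The part of these genes in the results was not tested.

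Cells make cholesterol from acetyl-CoA through mevalonate, isoprenoid diphosphates, squalene and lanosterol. The genes of these steps are switched on together by sterol regulatory element-binding proteins, the membrane-bound transcription factors encoded by SREBF1 and SREBF2. When sterols are plentiful, INSIG1 holds these factors in the endoplasmic reticulum, and INSIG1 is itself one of their targets. HMGCS1 makes HMG-CoA at the entry of the pathway, IDI1 interconverts the isoprenoid isomers, and FDFT1 joins farnesyl units into squalene. SQLE oxidizes squalene, and LSS closes the ring to give lanosterol. SREBF1 is best known for fatty acid synthesis genes and SREBF2 for cholesterol genes.

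The promoters of 3 of these genes are shown because INSIG1 and SREBF1 had the largest differences between lines and SREBF2 alone held the sterol element searched for. Each is the 250 bases before the start of the gene in RefSeq, on GRCh38.p14, read 5′ to 3′ in the direction of the gene. Capitals mark TCACNCCAC, a sterol regulatory element motif, CCAAT, the site of NF-Y, and GGGCGG, the GC box bound by Sp1, on either strand. GC boxes could overlap each other.
SREBF2, chr22:41832855-41833104, plus strand: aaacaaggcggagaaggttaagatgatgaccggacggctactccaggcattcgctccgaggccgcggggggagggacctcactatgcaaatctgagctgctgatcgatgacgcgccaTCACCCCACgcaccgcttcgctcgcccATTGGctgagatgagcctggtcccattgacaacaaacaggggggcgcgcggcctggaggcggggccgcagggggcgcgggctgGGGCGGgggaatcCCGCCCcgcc
INSIG1, chr7:155297628-155297877, plus strand: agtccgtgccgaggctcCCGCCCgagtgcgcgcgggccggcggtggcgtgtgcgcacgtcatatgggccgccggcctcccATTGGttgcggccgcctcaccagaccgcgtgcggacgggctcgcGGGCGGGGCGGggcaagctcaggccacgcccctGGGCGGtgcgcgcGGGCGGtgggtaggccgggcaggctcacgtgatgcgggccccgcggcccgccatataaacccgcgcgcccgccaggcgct
SREBF1, chr17:17836987-17837236, minus strand: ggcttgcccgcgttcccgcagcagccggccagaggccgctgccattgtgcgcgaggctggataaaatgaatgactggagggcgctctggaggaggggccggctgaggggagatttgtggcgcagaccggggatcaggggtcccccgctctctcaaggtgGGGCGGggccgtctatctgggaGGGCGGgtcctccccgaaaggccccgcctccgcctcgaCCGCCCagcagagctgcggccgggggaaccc

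RefSeq promoters were at hand for 6 of the 8 genes, in 9 entries. TCACNCCAC occurred in the SREBF2 entry only, 133 bases before the start, and in 0.883% of all 35116 promoters. The CCAAT box was found in the promoters of SREBF2, INSIG1 and LSS, in 1 of 2 entries of HMGCS1 and in 2 of 3 entries of IDI1, and in 32% of all promoters. SREBF1 had none, and its 3 GC boxes are the only capitals in its sequence. GC boxes were present in all 9 entries and in 42.6% of all promoters. These matches describe letters only and say nothing of binding in these cells.

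All 10 probes were well above background on all 9 arrays, with quantile-normalized signals of 639 to 19193 for the probe used for each gene. A signal is an intensity on a linear scale, and it is compared only between arrays for the same probe. Differences are given on the log2 scale from 1 limma fit over the 9 arrays, and p-values were adjusted (Benjamini-Hochberg) for the 20106 genes tested. A gene is called when its adjusted p-value is under 0.05.

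**Figure D1:**
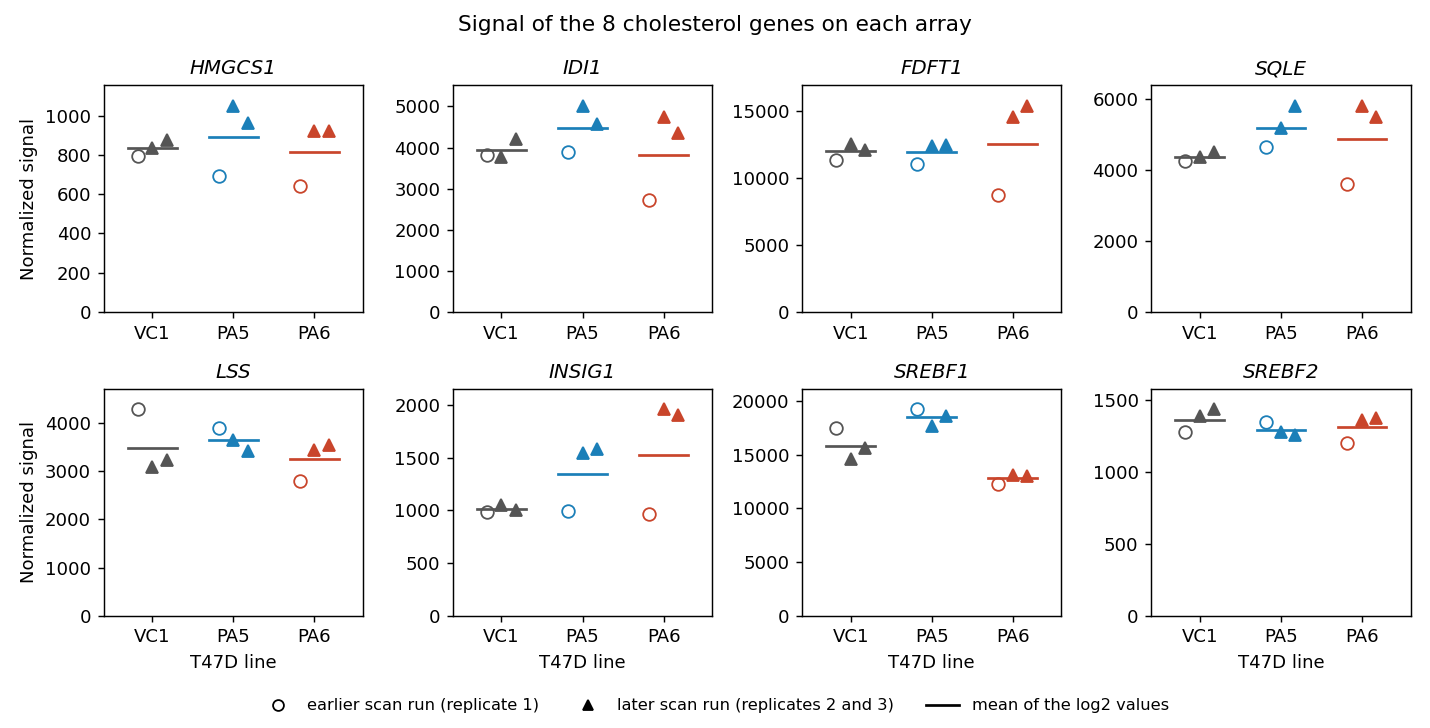
Normalized signal (linear axis from 0) of the 8 genes on each of the 9 arrays, by line. Open circles are replicate 1 of the earlier scan run, triangles are replicates 2 and 3 of the later run, and bars are the mean of the log2 values. INSIG1 lay between 988 and 1048 on the T47D-VC1 arrays and reached 1904 and 1959 on the T47D-PA6 arrays of the later run, and SREBF1 was lower on all T47D-PA6 arrays than on any other array.

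Among the regulators, SREBF1 was the gene of the list that separated the lines. Its signals were 17488, 14537 and 15617 in T47D-VC1. They were 19193, 17651 and 18615 in T47D-PA5 and 12250, 13135 and 12968 in T47D-PA6. The 3 lines did not overlap, with T47D-PA5 highest and T47D-PA6 lowest. SREBF1 was lower in T47D-PA6 than in T47D-PA5, at a log2 fold change of -0.53 (SE 0.1, n = 3 arrays per line, limma adjusted p = 0.0151). T47D-PA6 was at -0.31 against T47D-VC1 (SE 0.1, limma adjusted p = 0.0885) and T47D-PA5 at 0.22 (SE 0.1, limma adjusted p = 0.334), and neither difference passed.

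The SREBF1 call rested on 1 of its 2 probes. The probe used lies on chromosome 17 at 17715419 to 17715478 of hg19, and the second, whose start is 115 bases away, gave 238 to 285 in T47D-VC1, 264 to 340 in T47D-PA5 and 244 to 324 in T47D-PA6. These ranges overlapped, and the second probe stood at -0.07 in T47D-PA6 over T47D-PA5 (limma adjusted p = 0.804 over all probes tested). With the mean of the probes, SREBF1 stood at -0.30 and did not pass (limma adjusted p = 0.0983). It also missed the threshold without replicate 3 of T47D-PA5 (limma adjusted p = 0.0654) and without replicate 2 or 3 of T47D-PA6 (limma adjusted p = 0.0556 and 0.06). The direction held in both runs, at -0.65 in the earlier and -0.47 in the later run.

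SREBF2 stayed within a narrow range in all lines. Its signals were 1277, 1387 and 1435 in T47D-VC1, 1346, 1281 and 1258 in T47D-PA5, and 1202, 1364 and 1377 in T47D-PA6. The lines overlapped, and the 95% confidence intervals of its 3 log2 differences ran from -0.28 to 0.17 for T47D-PA6 over T47D-VC1, from -0.30 to 0.15 for T47D-PA5 over T47D-VC1, and from -0.21 to 0.24 for T47D-PA6 over T47D-PA5.

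INSIG1, the sterol-dependent brake, had the largest difference from T47D-VC1 in its mean and the widest spread. Its signals were 988, 1048 and 1003 in T47D-VC1. In T47D-PA5 they were 995, 1546 and 1586, and in T47D-PA6 they were 962, 1959 and 1904. Replicate 1 of T47D-PA5 and of T47D-PA6 was close to T47D-VC1, and replicates 2 and 3 of both lines were above it. The log2 fold change was 0.60 for T47D-PA6 over T47D-VC1 (SE 0.29, limma adjusted p = 0.228) and 0.41 for T47D-PA5 over T47D-VC1 (SE 0.29, limma adjusted p = 0.556), and neither passed. Without replicate 1 of T47D-PA6 it stood at 0.93 over T47D-VC1 and passed (limma adjusted p = 0.0235).

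None of the 5 enzymes passed the test in any comparison with all arrays. HMGCS1 gave 793, 837 and 875 in T47D-VC1, 695, 1051 and 964 in T47D-PA5, and 639, 921 and 920 in T47D-PA6. IDI1 gave 3820, 3767 and 4212 in T47D-VC1, 3900, 5020 and 4570 in T47D-PA5, and 2727, 4739 and 4345 in T47D-PA6. For both genes replicate 1 of T47D-PA6 was the lowest of the 9 arrays and the lines overlapped.

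FDFT1, at the branch into squalene, gave 11320, 12566 and 12091 in T47D-VC1 and 11034, 12409 and 12471 in T47D-PA5. In T47D-PA6 it gave 8759, 14523 and 15399, which are the lowest value and the 2 highest of the 9. SQLE, the enzyme that follows, gave 4271, 4363 and 4513 in T47D-VC1, 4650, 5197 and 5800 in T47D-PA5, and 3619, 5820 and 5485 in T47D-PA6. Each T47D-PA5 array lay above each T47D-VC1 array for SQLE, at a log2 fold change of 0.25 that did not pass (SE 0.18, limma adjusted p = 0.582).

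LSS differed in its pattern. Its signals were 4284, 3082 and 3228 in T47D-VC1, 3903, 3649 and 3431 in T47D-PA5, and 2805, 3449 and 3556 in T47D-PA6. Replicate 1 was the highest array in T47D-VC1 and in T47D-PA5 and the lowest in T47D-PA6. A second LSS probe, annotated to another transcript with a start 732 bases away, gave 69.6 to 78.5 in T47D-VC1, 60.5 to 85.4 in T47D-PA5 and 46.2 to 81.5 in T47D-PA6, and did not pass in any comparison (limma adjusted p = 0.64 to 0.992 over all probes tested).

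The first comparison, T47D-PA6 with T47D-VC1, asks how RNA levels differ with full-length PTH-AS. It called 0 of the 8 genes, where 10.0% of all genes tested were called, and 1 of the 8 (SREBF1) was at an unadjusted p under 0.05 in limma, as were 5341 of all genes. Over the 8 genes the log2 fold changes had a median of -0.04, beside -0.03 for all genes tested. T47D-PA5 over T47D-VC1, which asks the same of the incomplete transcript, called 0 of 8 genes, where 1.67% of all genes were called. It had 0 of the 8 and 3133 of all genes at an unadjusted p under 0.05 in limma, and the medians were 0.14 and -0.03. T47D-PA6 over T47D-PA5 called 1 of 8 genes, SREBF1, beside 9.71% of all genes, with medians of -0.11 and -0.00092. The comparisons with T47D-VC1 share its 3 arrays. The widest 95% confidence intervals were those of INSIG1, from -0.06 to 1.25 in T47D-PA6 over T47D-VC1.

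**Figure D2:**
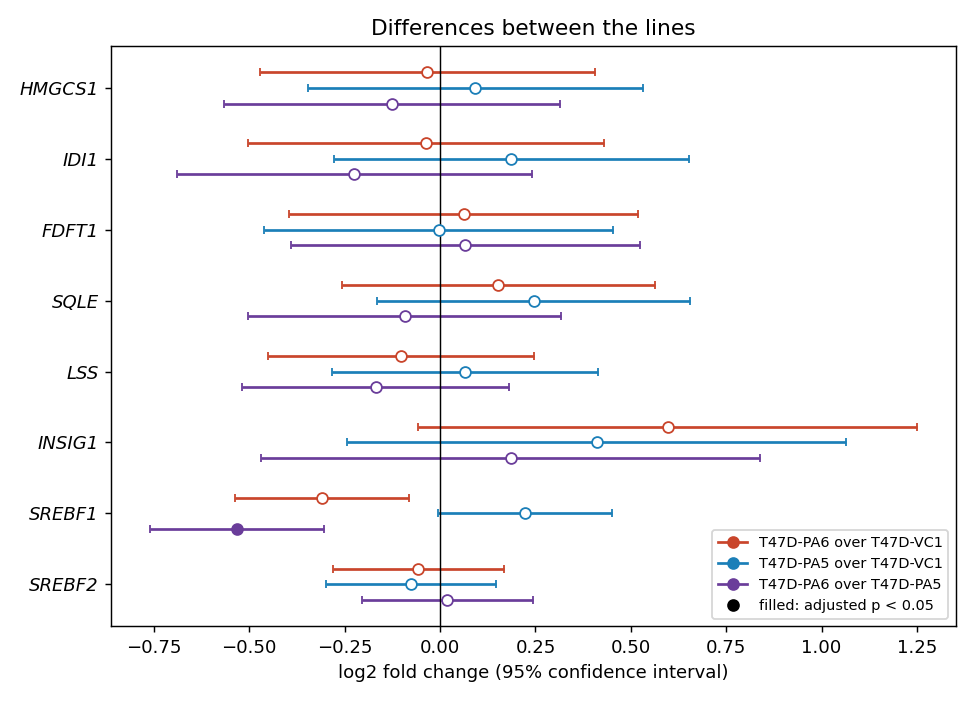
Log2 fold change of the 8 genes in the 3 comparisons, with 95% confidence intervals from the limma fit (n = 3 arrays per line). Filled points have an adjusted p-value under 0.05. The interval of SREBF1 in T47D-PA6 over T47D-PA5 is the one filled point, at -0.53, and INSIG1 has the widest intervals.

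The order of the line means varied from gene to gene. T47D-PA5 was the highest line for HMGCS1, IDI1, LSS, SQLE and SREBF1, T47D-PA6 for INSIG1 and FDFT1, and T47D-VC1 for SREBF2. No neighbours in any of these orders differed beyond the threshold, and SREBF1 differed only between the ends of its order.

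The arrays of the 2 runs gave different answers for T47D-PA6. In the earlier run T47D-PA6 over T47D-VC1 was below 0 for 8 of 8 genes, with a median of -0.34 and a range from -0.61 (LSS) to -0.04 (INSIG1). In the later run it was above 0 for 6 of 8, with a median of 0.17 and a range from -0.21 (SREBF1) to 0.91 (INSIG1). The median of all genes tested was -0.05 in the earlier run and -0.01 in the later run, with 43.8% and 48.5% of them above 0. The earlier run holds 1 array per line. The genes above 0 in the later run were the 5 enzymes and INSIG1, at 0.10 for HMGCS1, 0.15 for LSS, 0.19 for IDI1, 0.28 for FDFT1 and 0.35 for SQLE.

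The runs differed most in T47D-PA6. Within that line, later minus earlier was above 0 for 8 of 8 genes with a median of 0.58, against 0.04 for all genes tested, of which 54.8% were above 0. The same quantity had a median of 0.06 over the 8 genes in T47D-VC1 and 0.21 in T47D-PA5. INSIG1 differed by 1.01 between the runs in T47D-PA6 and by 0.65 in T47D-PA5, beside 0.05 in T47D-VC1. SREBF1 and SREBF2 differed by 0.09 and 0.19 in T47D-PA6, the smallest values of the 8 genes in that line.

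**Figure D3:**
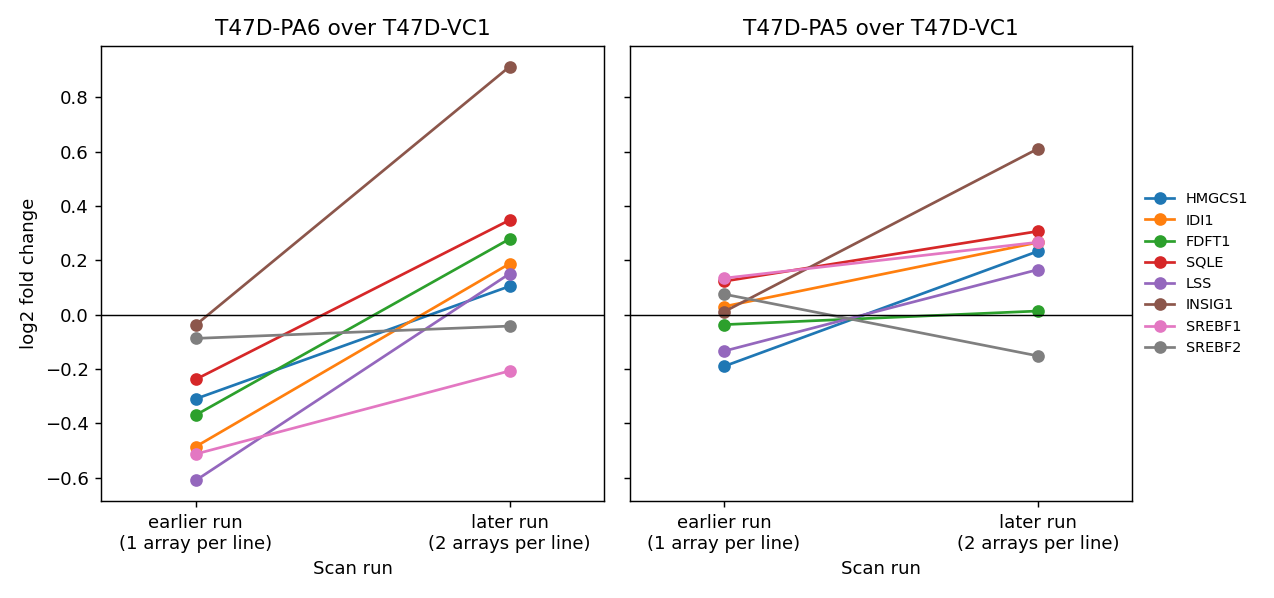
Log2 fold change over T47D-VC1 of the 8 genes in each scan run, for T47D-PA6 (left) and T47D-PA5 (right), with 1 array per line in the earlier run and 2 in the later run; no error is drawn. For T47D-PA6 all 8 genes lie below 0 in the earlier run, and 6 lie above 0 in the later run, up to 0.91 for INSIG1.

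A limma fit with a term for each line in each run, added after the values by array were seen, tested whether a difference between lines changed from run to run. It has 3 residual degrees of freedom, and since the earlier run holds 1 array per line its error comes from the 2 later arrays of each line alone, so the spread between arrays of the earlier run is not covered. In T47D-PA6 over T47D-VC1 it called 3 of 8 genes, all higher in the later run, where 10.1% of all genes were called. These were INSIG1, with a difference of 0.95 (SE 0.1, limma adjusted p = 0.0139), LSS, with 0.76 (SE 0.11, limma adjusted p = 0.0242), and FDFT1, with 0.65 (SE 0.11, limma adjusted p = 0.0296). In T47D-PA5 over T47D-VC1 it called INSIG1 alone, with 0.60, beside 14.5% of all genes. In T47D-PA6 over T47D-PA5 it called FDFT1 alone, with 0.60, beside 9.41% of all genes. Of 38 other genes of the pathway, described below, it called 4, 3 and 3 in these comparisons, in the same order. Of the 4 in T47D-PA6 over T47D-VC1, 3 were higher in the later run.

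With the later run only, 3 of the 8 genes were called higher in T47D-PA6 over T47D-VC1, where 37.1% of all genes were called, a like share. They were INSIG1, at 0.91 (limma adjusted p = 0.000815), SQLE, at 0.35 (limma adjusted p = 0.0247), and FDFT1, at 0.28 (limma adjusted p = 0.0227). T47D-PA5 over T47D-VC1 then called INSIG1, at 0.61 (limma adjusted p = 0.0049), and SREBF1, at 0.27 (limma adjusted p = 0.0485), beside 21.4% of all genes. T47D-PA6 over T47D-PA5 called INSIG1 at 0.30 and FDFT1 at 0.27, both higher, and SREBF1 at -0.47 (limma adjusted p = 0.0161, 0.0268 and 0.00627), beside 35.5% of all genes. This setting also called 7469 genes in all in T47D-PA6 over T47D-VC1, against 2017 with all arrays. On slide 3, which holds arrays of all lines, INSIG1 stood at 0.95 in T47D-PA6 and 0.66 in T47D-PA5 over T47D-VC1.

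The other genes of the pathway were taken from a list of 40, of which 38 were tested. T47D-PA6 over T47D-PA5 called 10 of these lower and 0 higher, that is 26.3% lower, beside 6.06% of all genes called lower and 3.65% called higher. Among the 14 synthesis enzymes of this list 6 were lower, and 13 of 14 had a log2 fold change below 0. Their median was -0.19, beside -0.00092 for all genes tested. In T47D-PA5 over T47D-VC1, 13 of the 14 were above 0, with a median of 0.18 beside -0.03 for all genes. In T47D-PA6 over T47D-VC1, 10 of the 14 were below 0, with a median of -0.11 beside -0.03 for all genes. The count of 10 genes called lower in T47D-PA6 than in T47D-PA5 came to 6 without replicate 2 or 3 of T47D-PA5. It came to 5 without replicate 2 or 3 of T47D-PA6. Where the 10 called genes lie on the chromosomes was not examined here, so their calls may not be independent of each other.

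On the mevalonate side, FDPS, which makes farnesyl diphosphate, gave 13642, 17531 and 17584 in T47D-PA5, 7687, 8087 and 8674 in T47D-PA6, and 9655, 12719 and 12596 in T47D-VC1. Every T47D-PA6 array was below every other array, and FDPS was lower in T47D-PA6 than in T47D-PA5 by a log2 fold change of -0.99 (SE 0.15, limma adjusted p = 0.00692). PMVK, the phosphomevalonate kinase, was at -0.84 and GGPS1, which makes geranylgeranyl diphosphate, at -0.88 in the same comparison (limma adjusted p = 0.0106 and 0.00258). GGPS1 was also higher in T47D-PA5 than in T47D-VC1, at 0.65 (limma adjusted p = 0.0187).

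Of the steps from squalene to cholesterol, HSD17B7, a ketosteroid reductase, had the largest difference. It gave 325, 485 and 459 in T47D-PA5, 180, 168 and 157 in T47D-PA6, and 221, 351 and 301 in T47D-VC1. The log2 fold change of T47D-PA6 over T47D-PA5 was -1.31 (SE 0.2, limma adjusted p = 0.00747), and its other 2 tested probes gave -1.05 and -1.03. HSD17B7 has a closely similar pseudogene, so its signal may be shared. TM7SF2, a sterol reductase, was at -0.45, and EBP, a sterol isomerase, at -0.39. The 5 enzymes described first gave log2 fold changes from -0.22 (IDI1) to 0.07 (FDFT1) and 0 calls in this comparison, beside 9.71% of all genes called. With so few genes, 0 calls cannot be told apart from that share.

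**Figure D4:**
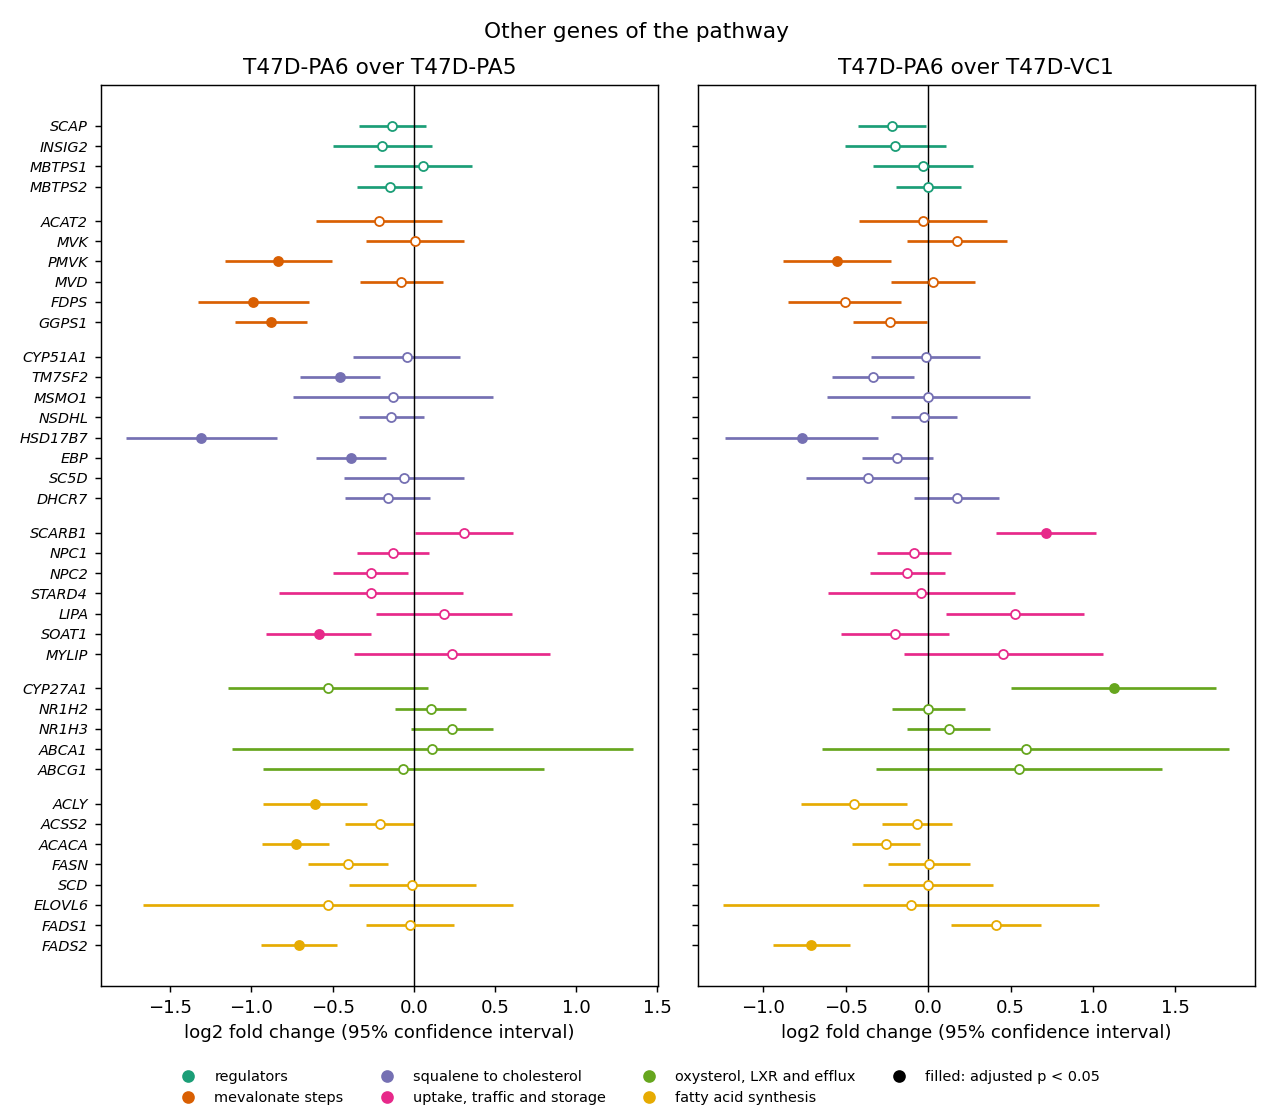
Log2 fold change of the 38 tested genes of the pathway list with 95% confidence intervals from the limma fit, grouped by role, for T47D-PA6 over T47D-PA5 (left) and T47D-PA6 over T47D-VC1 (right). Filled points have an adjusted p-value under 0.05; on the left 10 are filled, all below 0, with HSD17B7 farthest at -1.31.

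Outside sterol synthesis, the genes lower in T47D-PA6 than in T47D-PA5 were SOAT1, which esterifies cholesterol for storage, at -0.59, and the fatty acid genes ACLY, ACACA and FADS2, at -0.61, -0.73 and -0.71. ACLY supplies cytosolic acetyl-CoA, ACACA commits it to fatty acids, and FADS2 is a desaturase. ACACA was also higher in T47D-PA5 than in T47D-VC1, at 0.47 (limma adjusted p = 0.0445). Its second probe, at 0.16, did not pass there (limma adjusted p = 0.597 over all probes tested). The 4 regulators SCAP, INSIG2, MBTPS1 and MBTPS2, which carry or cleave the sterol regulatory factors or hold them back, had 0 calls in the 3 comparisons. Of all genes, 10.0% were called in T47D-PA6 over T47D-VC1, 1.67% in T47D-PA5 over T47D-VC1 and 9.71% in T47D-PA6 over T47D-PA5. With 4 genes, 0 calls cannot be told apart from these shares.

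Against T47D-VC1, 5 of the 38 genes were called in T47D-PA6. This count came to 2 without replicate 2 of T47D-VC1 or replicate 2 or 3 of T47D-PA5, and to 1 without replicate 3 of T47D-VC1 or replicate 2 or 3 of T47D-PA6. The 3 lower genes were PMVK at -0.55, HSD17B7 at -0.77 and FADS2 at -0.71, beside 5.34% of all genes called lower. One of the other 2 tested probes of HSD17B7 did not pass (limma adjusted p = 0.0833 over all probes tested). ACACA was not called here, but its second, dimmer probe was lower, at -0.76 (limma adjusted p = 0.00739 over all probes tested). The 2 higher genes, beside 4.69% of all genes called higher, were SCARB1 and CYP27A1. SCARB1, the receptor that takes up cholesterol from high-density lipoprotein, gave 23091, 24184 and 23554 in T47D-VC1, 34970, 30717 and 28349 in T47D-PA5, and 32542, 41650 and 42941 in T47D-PA6. The T47D-VC1 arrays were the lowest 3, and SCARB1 was upregulated in T47D-PA6 by a log2 fold change of 0.72 (SE 0.13, limma adjusted p = 0.0145).

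CYP27A1, the sterol 27-hydroxylase that makes an oxysterol, gave 304, 191 and 183 in T47D-VC1, 496, 803 and 825 in T47D-PA5, and 607, 408 and 443 in T47D-PA6. It was higher than in T47D-VC1 in both other lines, by 1.12 in T47D-PA6 (limma adjusted p = 0.0368) and by 1.65 in T47D-PA5 (limma adjusted p = 0.0247). With GGPS1 and ACACA it made up the 3 genes called higher in T47D-PA5 over T47D-VC1, where 0 were lower, beside 1.37% of all genes called higher and 0.298% called lower. None of the 3 passed without replicate 2 or 3 of T47D-VC1 or without replicate 2 or 3 of T47D-PA5. The difference in CYP27A1 between T47D-PA5 and T47D-VC1 changed from run to run by 1.42 (limma adjusted p = 0.0096).

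Some other genes varied over the 9 arrays much as the cholesterol genes did. Likeness was measured as Pearson's r with a profile over the 9 arrays, which share 3 lines and 2 runs, and is given as a description. The mean standardized profile of the 5 enzymes and INSIG1 was most like CREBZF (r = 0.988), an unnamed probe (r = 0.968) and PSTPIP2 (r = 0.955), among 18229 genes. SREBF1 was most like AHCTF1 (r = 0.981), GGT3P (r = 0.966), a gene with close copies, and lnc-ATF3-1 (r = 0.963). SREBF2 was most like RRM2 (r = 0.966), GUSBP11 (r = 0.965) and SEPTIN7P2 (r = 0.962).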

How the data were processed

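RNA of 3 stable T47D lines was measured on 9 single-color arrays, 3 per line, after low-input labeling with Cy3. The authors deposited the spot intensities from Feature Extraction, with background subtracted and no normalization between arrays (9.5.1.1 in the methods and submitters' notes, 10.7.1.1 in the file headers), and a table they had quantile-normalized. Outlier spots (46 to 117 per array) were left out, no spot was saturated, spots of a probe were averaged as log2 values, and arrays were quantile-normalized. A probe was tested (26171 were) if all arrays of 1 line or more had it well above background, and a gene was read from its brightest tested probe, which gave 20106 genes. Lines were compared with limma 3.58.1 in R 4.3.3 with 6 residual degrees of freedom, tables were read with the data.table package (version 1.17.8), and the fit was tested on simulated data. Well above background covered 46.2% to 50.0% of the probes of an array, and precision is limited by the number of arrays.

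Gene names were updated with RefSeq tables, by symbol for 31127 probes, accession for 3343 and synonym for 496, and 23235 kept the name in the files. The authors' normalized values correlated at 1 with the values used here. The genes and lists were chosen with earlier results of these data known. Named are the 8 genes, genes of the pathway list past the threshold in at least 1 comparison and its 4 regulators, which are named outside that rule, and the 3 genes most like each of 3 profiles; markers, genes between runs and second probes were chosen after their values were seen. Some genes of the pathway are not reported here. Alternatives were a 75th percentile shift, normexp with an offset of 50, the authors' table, other filters, blocks for slide and replicate, arrays left out, an intensity trend, the methods' unpaired test, fits of the compared lines alone and means of probes.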

Additional observations from a re-analysis of the deposited data

Results flagged for a closer look

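The 5 results below are listed because the difference between 2 lines was not the same in the earlier and the later scan run. This was judged by an interaction term in limma that was added after the values by array were seen. The change was 0.95 for INSIG1, 0.65 for FDFT1 and 0.76 for LSS in T47D-PA6 over T47D-VC1. It was 0.60 for INSIG1 in T47D-PA5 over T47D-VC1 and 0.60 for FDFT1 in T47D-PA6 over T47D-PA5. All were higher in the later run, and each rests on 1 array per line in the earlier run, with the error taken from the later arrays alone. The single calls in T47D-PA5 over T47D-VC1 and in T47D-PA6 over T47D-PA5 were near the share of all genes called by the same term. That share is given with the fit above.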

How the results depend on the processing

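The 12 other settings and the 9 fits with 1 array left out were run on every comparison. The cause of the changes below was not tested, except that fits with fewer arrays, the unpaired test and the fit of the compared lines alone have fewer degrees of freedom. Of 8 genes, T47D-PA6 over T47D-VC1 called 1 with normexp and 1 with an intensity trend (SREBF1 in both) and 3 in the later run only. T47D-PA5 over T47D-VC1 called 2 in the later run. T47D-PA6 over T47D-PA5 called 3 in the later run and 0 with the mean of probes. With arrays left out these counts ran from 0 to 1, from 0 to 0 and from 0 to 1. Of 38 pathway genes, T47D-PA6 over T47D-VC1 called 2 with no filter, 18 in the later run, 0 by the methods' unpaired test and 2 in the fit of the compared lines, and 1 to 7 with an array left out. T47D-PA5 over T47D-VC1 called 13 in the later run, 0 by the unpaired test and 0 in the fit of the compared lines, and 0 to 3 with an array left out. T47D-PA6 over T47D-PA5 called 18 in the later run and 5 by the unpaired test, and 5 to 11 with an array left out. The calls of the run term, in alternatives added after seeing the data, were 5 with normexp, 5 with the stricter filter and 7 with the trend in T47D-PA6 over T47D-VC1. They were 0 with the percentile shift, 2 with normexp and 3 with the trend in T47D-PA5 over T47D-VC1, and 3 and 5 with normexp and the trend in T47D-PA6 over T47D-PA5. The share of all genes that the run term calls in these alternatives was not computed, so no reading is drawn from its counts. Without that term all genes called ranged from 432 to 7469, from 39 to 4309 and from 789 to 7142 over the 12 settings. These ranges are for the 3 comparisons, in the order above. With an array left out they were 703 to 2768, 99 to 621 and 726 to 2950.

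SREBF1 in T47D-PA6 over T47D-PA5 passed in 17 of 21 alternatives, and its adjusted p-value (limma, and the unpaired test in 1 of them) ranged from 0.0034 to 0.0983. Signs turned in 31 cases, each with both values uncalled. In the later run they were HMGCS1 0.10, IDI1 0.19 and LSS 0.15 in T47D-PA6 over T47D-VC1, FDFT1 0.013 in T47D-PA5 over T47D-VC1 and SQLE 0.041 in T47D-PA6 over T47D-PA5. With the percentile shift FDFT1 stood at 0.032 in T47D-PA5 over T47D-VC1 and SREBF2 at -0.030 in T47D-PA6 over T47D-PA5, and with normexp FDFT1 at 0.010 in T47D-PA5 over T47D-VC1. With an array left out, T47D-PA6 over T47D-VC1 ranged from -0.12 to 0.14 for HMGCS1, -0.19 to 0.21 for IDI1, -0.087 to 0.32 for FDFT1, -0.19 to 0.044 for LSS and -0.11 to 0.0058 for SREBF2. T47D-PA5 over T47D-VC1 ranged from -0.028 to 0.27 for HMGCS1, -0.044 to 0.054 for FDFT1 and -0.025 to 0.21 for LSS. T47D-PA6 over T47D-PA5 ranged from -0.30 to 0.049 for HMGCS1, -0.22 to 0.12 for SQLE, -0.38 to 0.021 for IDI1, -0.033 to 0.52 for INSIG1, -0.084 to 0.32 for FDFT1 and -0.016 to 0.082 for SREBF2. With the replicate number as a block, 0, 0 and 1 of the 8 genes and 7, 3 and 10 of the pathway genes were called in the 3 comparisons. Same-numbered arrays deviated together with correlations of 0.0992 to 0.337 in 9 pairs, over 0.1 in 8 of them, just short of every pair. The numbers were therefore not taken to pair the samples, although replicate 1 of all lines shared a slide and a scan run. Arrays of unlike numbers correlated at -0.315 to 0.261 in 18 pairs, over 0.1 in 6 of them. Those across the runs were all below 0, and those within the later run were all above 0. The main fit has no term for the run, so differences between runs count as spread in its p-values.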
